A study of Mus musculus with 25 samples.

Results

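B16F10 luc2 and RET are mouse melanoma cell lines that the study describes as separate lines. The genes described here are those for which both lines lay on the same side of 3 other mouse melanoma lines, WT31, D4M and HCmel12. The members were found from the deposited RNA-seq counts: a gene was a member when its mean level in B16F10 luc2 and its mean level in RET were both above, or both below, the means of all 3 other lines. Of 34969 genes with a count in any library, 8556 were members by this order, 4439 higher in the pair and 4117 lower. After a filter on low counts 15247 genes were left, of which 5444 were members, 2804 higher and 2640 lower. A narrower set of 2964 genes is used below for most counts. In it each of the 6 differences between a line of the pair and another line had the same sign and an adjusted p under 0.05. It held 1674 genes higher in the pair, which is 11.0% of the tested genes, and 1290 lower genes, which is 8.46%. These values chose the members, so the levels are given as a description and no further test is attached to them. Adjusted p-values for membership are printed below only to show where a call was lost under an alternative. The same selection for another pair, WT31 and D4M against the remaining lines, held 1267 higher and 1187 lower genes.

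The 25 libraries were 5 biological replicates of each line, grown untreated in culture and harvested at 50% confluency, in a study of how melanomas with different drivers colonise the liver. B16F10 luc2 is a purchased, luciferase-carrying derivative of the B16 melanoma. RET cells came from mice with a human RET transgene, a receptor tyrosine kinase, driven by the mouse metallothionein-I promoter. WT31 came from Tyr::NrasQ61K/°; INK4a-/- mice, which carry an activated Nras in pigment cells and lack INK4a. D4M came from mice with Tyr::CreER and BrafCA, among other alleles, in which Braf is activated by a Cre active in pigment cells, and HCmel12 from a primary tumour of HGF-CDK4(R24C) mice. B16F10 luc2, RET and WT31 shared 1 culture medium, HCmel12 was kept in the same base medium with more supplements and D4M in a different medium, so that for D4M and HCmel12 the line and its medium cannot be told apart. Each line is 1 cell line, and its replicates show how far cultures of that line differ, not how far melanomas of that genotype differ.

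Melanocytes arise from the neural crest. Transcription factors such as Sox10, Pax3, Foxd3 and Mitf act in that lineage, and Mitf activates the genes of the melanosome, the organelle in which melanin is made. Melanoma drivers such as Nras, Braf and receptor tyrosine kinases feed the ERK pathway, whose activity is commonly read from the genes it induces, among them the Etv4 and Etv5 transcription factors and the Spry and Dusp feedback inhibitors.

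Library totals were 24199083 to 25843286 counts, and levels are given as CPM (counts scaled to a common library size), as mean ± SD over the 5 libraries of a line. In bulk RNA a lower level in every cell cannot be told apart from a smaller share of expressing cells. Correlations of log2 CPM over the 15247 tested genes were 0.954 to 0.958 between libraries of B16F10 luc2 and RET, at most 0.893 between libraries of any other pair of lines, and at least 0.984 within a line. These are correlations across genes and carry no test. Both lines of the pair also had 0 counts of Cdkn2a and Ddx3y in every library, as given below. D4M was near background for Cdkn2a too, as was HCmel12 for Ddx3y. The study's methods report STR profiles unique to each line, and whether the 2 lines are related was not tested here. D4M lacked most melanocyte transcripts: the summed level of 14 melanocyte markers was 34.1 to 93.3 CPM in its libraries, with Gpr143, Oca2, Ednrb and Kit at or under 3 counts in every one, against 12600 to 31700 CPM in the libraries of the other 4 lines. Its 10 fibroblast markers summed to 717 to 1410 CPM, against 1.43 to 103 CPM elsewhere. The 11 leukocyte and macrophage markers summed to 3.86 to 16.7 CPM, with 6 or 7 of them at or under 3 counts in every library of a line, among these Ptprc, Adgre1, Tyrobp and Cd3e in all 5 lines. The 9 endothelial markers summed to 26.3 to 39.6 CPM in HCmel12, against 0.418 to 3.39 CPM elsewhere, and 9 keratinocyte and epithelial markers to at most 15.4 CPM. D4M replicate 1 held low levels of several transcripts of the pigmented lines (Tyrp1 at 27 CPM, against at most 2.85 CPM in the other D4M libraries), HCmel12 replicate 4 stood apart from its line in stress genes, and WT31 replicate 4 held traces of genes otherwise found in the pair. Their part in the results was not tested beyond the values given without them.

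Among the members farthest from the other lines, some were at or near 0 on 1 side, and these are called switched on or switched off in the pair below. In all, 26 genes had at least 10 counts in each of the 10 libraries of the pair and at most 3 in each of the 15 others, and 40 genes had the opposite pattern. The 26 genes lay on 14 chromosomes and 14 were protein coding, and the 40 genes lay on 18 chromosomes and 37 were protein coding. Both counts were close to these without D4M replicate 1 and HCmel12 replicate 4 (26 and 41) and without WT31 replicate 4 and D4M replicate 1 (28 and 40). The promoters of 5 genes are shown as examples of CG content, which the choice of the 2 classes did not use, and the examples were picked after their CG counts were seen. The sequences are from RefSeq (GRCm38.p6) and run from 250 bases before to 50 bases after the annotated start of the gene, 5′ to 3′, with each CG dinucleotide in capitals. Foxd3, Sox12 and Prkd1 were off in the pair. Brs3 was found only in the pair at this limit, and Foxr2 failed the limit by 1 library with 5 counts.
Foxd3: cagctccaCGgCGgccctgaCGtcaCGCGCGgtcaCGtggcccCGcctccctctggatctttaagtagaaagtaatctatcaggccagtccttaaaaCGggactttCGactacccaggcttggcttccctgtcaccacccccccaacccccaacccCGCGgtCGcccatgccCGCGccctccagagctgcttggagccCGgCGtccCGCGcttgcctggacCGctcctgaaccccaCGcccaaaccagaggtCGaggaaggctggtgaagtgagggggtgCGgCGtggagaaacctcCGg
Sox12: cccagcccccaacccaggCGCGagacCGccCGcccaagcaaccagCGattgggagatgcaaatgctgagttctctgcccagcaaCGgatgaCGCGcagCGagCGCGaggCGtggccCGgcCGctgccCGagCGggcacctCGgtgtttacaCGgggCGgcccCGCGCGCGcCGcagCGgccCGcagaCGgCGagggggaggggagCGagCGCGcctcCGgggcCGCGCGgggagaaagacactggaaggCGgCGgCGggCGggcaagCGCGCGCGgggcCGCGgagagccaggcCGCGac
Prkd1: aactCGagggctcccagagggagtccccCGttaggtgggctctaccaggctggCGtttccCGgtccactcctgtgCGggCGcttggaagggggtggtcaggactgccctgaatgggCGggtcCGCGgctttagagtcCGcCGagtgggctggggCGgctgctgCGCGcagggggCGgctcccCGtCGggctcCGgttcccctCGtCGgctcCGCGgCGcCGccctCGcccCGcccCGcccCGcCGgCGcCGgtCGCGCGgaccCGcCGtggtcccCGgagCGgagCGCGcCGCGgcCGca
Brs3: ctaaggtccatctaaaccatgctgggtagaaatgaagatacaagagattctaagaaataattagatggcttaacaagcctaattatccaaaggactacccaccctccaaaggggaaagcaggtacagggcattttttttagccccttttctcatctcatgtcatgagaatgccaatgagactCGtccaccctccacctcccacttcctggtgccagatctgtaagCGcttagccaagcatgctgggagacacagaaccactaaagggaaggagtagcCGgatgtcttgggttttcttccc
Foxr2: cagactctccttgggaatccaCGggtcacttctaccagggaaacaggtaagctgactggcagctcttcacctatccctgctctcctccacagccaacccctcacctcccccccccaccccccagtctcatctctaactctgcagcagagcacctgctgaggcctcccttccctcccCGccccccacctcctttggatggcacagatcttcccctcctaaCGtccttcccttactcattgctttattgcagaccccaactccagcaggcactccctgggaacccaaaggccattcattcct
The Foxd3 promoter (chr4:99656049-99656348, plus strand) holds 25 CG, that of Sox12 (chr2:152397997-152398296, minus strand) 47 and that of Prkd1 (chr12:50649200-50649499, minus strand) 43. Sox12 and Prkd1 hold the most CG of the switched-off genes with a promoter entry. The promoters of Brs3 (chrX:57042824-57043123, plus strand) and Foxr2 (chrX:153118538-153118837, plus strand) hold 3 CG each. CG reads the same on both strands, and a count of it says nothing of whether it was methylated, which was not measured.

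Over the genes that matched the RefSeq promoter table, the 30 of 40 switched-off genes had a median of 22 CG per promoter, the same as the median of 22 over 10987 tested genes (quartiles 14 and 30). The 15 of 26 switched-on genes had a median of 6, and 7 of the 15 (46.7%) held 5 CG or fewer, against 4 of the 30 switched-off genes (13.3%) and 8.76% of all tested genes with a promoter. Single genes went against the class medians: switched-off Col28a1 holds 0 CG and Kcnf1 3, and switched-on Cabp7 holds 30. The larger sets had closer medians: 1263 genes called higher had a median of 21 and 936 genes called lower a median of 24. For a gene with several promoter entries the highest CG count was used. The 15 switched-on genes include antisense and pseudogene entries, while 86.8% of all tested genes are protein coding. The CG medians and shares are descriptions, and no test was made of them.

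**Figure D1:**
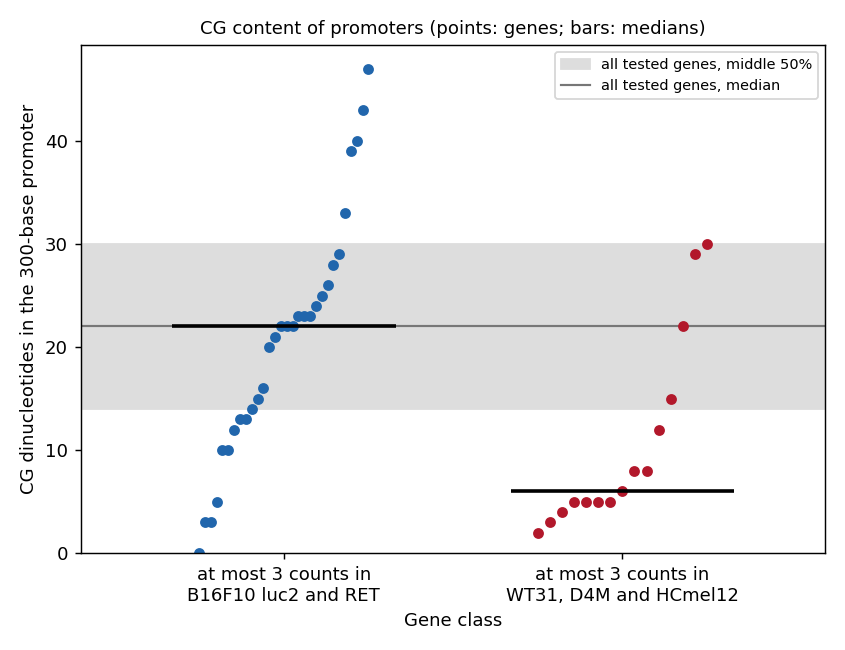
CG dinucleotides in the 300-base promoter (y axis) of genes with at most 3 counts in every library of B16F10 luc2 and RET and at least 10 in every other library (blue, 30 genes with a promoter entry), and of the opposite class (red, 15 genes). Black bars are class medians (22 and 6), the grey line is the median of all tested genes (22) and the grey band their quartiles (14 to 30). A gene with several promoter entries is shown at its highest count.

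Among the genes found in the pair, Gsdmc, a member of the pore-forming gasdermin family (chr15:63775968-63808759, minus strand, GRCm38), had the widest separation. Its level was 118, 124, 139, 119 and 143 CPM in B16F10 luc2. The RET libraries were at 198, 176, 137, 203 and 217 CPM in RET. In WT31 it was at 0 in 2 libraries and at most 0.654 CPM, in D4M only replicate 1 had any counts (0.598 CPM), and all 5 HCmel12 libraries were at 0. All 10 libraries of the pair were thus above 117 CPM and all 15 others below 1. RET was above B16F10 luc2 (log2 difference B16F10 luc2 minus RET -0.52, SE 0.12, adjusted p = 0.00065, limma). Of its transcript 31-mers, 23.9% are shared with other genes, mainly Gsdmc2, so part of the counts could be assigned differently.

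Foxr2, a forkhead transcription factor (chrX:153118786-153132861, plus strand), read 60.6, 60.1, 62.9, 65.2 and 54 CPM in B16F10 luc2, and 27.6, 35.1, 34.2, 29 and 31.2 CPM in RET. Outside the pair it was seen only in WT31 replicate 4 (5 counts) and D4M replicate 1 (1 count). Here B16F10 luc2 was the higher of the 2 lines, without overlap (log2 difference B16F10 luc2 minus RET 0.95, SE 0.08, adjusted p = 1.5e-10). Brs3, an orphan receptor of the bombesin family (chrX:57043074-57048758), had 21.5 ± 1.98 CPM in B16F10 luc2 and 24.7 ± 1.83 in RET, and no other library exceeded 2 counts. Slc2a5, the fructose transporter GLUT5 (chr4:150119283-150144169), had 49.5 ± 2.48 CPM in B16F10 luc2 and 59.4 ± 2.36 in RET and at most 12 counts in any other library. For both genes the lines differed little within the pair, RET being above (Brs3 by 0.20 on the log2 scale, adjusted p = 0.0289, and Slc2a5 by 0.27, adjusted p = 0.0124).

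The other genes with the largest separation were a mixed group. Olfr11, an odorant receptor, had 25.4 ± 1.94 CPM in B16F10 luc2 and 20.5 ± 3.03 in RET, and Ly6g5c, of the Ly6 family, had 4.69 ± 0.698 CPM in B16F10 luc2 and 4.09 ± 0.616 in RET with 0 counts in all 15 other libraries. Dlx6, a homeobox transcription factor on chromosome 6, had 11.5 ± 2.57 CPM in B16F10 luc2 and 21.8 ± 1.79 in RET, and Lpar5, a receptor for lysophosphatidic acid on the same chromosome, 19.6 ± 1.25 CPM in B16F10 luc2 and 5.69 ± 0.818 in RET. Both differed within the pair, in opposite directions (Dlx6: log2 difference B16F10 luc2 minus RET -0.94, SE 0.13, adjusted p = 1.7e-06; Lpar5: log2 difference B16F10 luc2 minus RET 1.79, SE 0.13, adjusted p = 1.39e-11). The cytoplasmic dynein subunit Dync1i1 was the most variable member of the group, with 6.63, 4.85, 2.76, 1.69 and 5.69 CPM in B16F10 luc2 and 4.55, 6.95, 14.5, 4.84 and 4.48 CPM in RET. Sectm1a had 12.9 ± 0.764 CPM in B16F10 luc2 and 7.42 ± 0.981 in RET, and the zinc finger gene Zfp575 34.4 ± 4.41 CPM in B16F10 luc2 and 27.8 ± 3.14 in RET. Xlr3c, an X-linked gene with 82.2% of its transcript 31-mers shared, mainly with Xlr3b, had 45.5 ± 1.9 CPM in B16F10 luc2 and 43.2 ± 4.02 in RET and at most 13.7 counts elsewhere.

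Among the genes at or near 0 in the pair, Foxd3, the forkhead factor of early neural crest (chr4:99656299-99658622, plus strand), had 0 counts in all 10 libraries. The other lines read 45.8, 30.8, 38.3, 41.4 and 37.5 CPM in WT31, 24, 24.7, 21.8, 21.6 and 18.2 CPM in D4M, and 10.8, 18.3, 14.8, 12.6 and 11.7 CPM in HCmel12. Prkd1, protein kinase D1 (chr12:50341231-50649098), also had 0 counts in all 10, with 31.9 ± 3.31 CPM in WT31, 9.08 ± 1.21 in D4M and 12.1 ± 2.24 in HCmel12. Sox12, a SoxC transcription factor (chr2:152393611-152398063, minus strand), had a single count in RET replicate 5 and none in the other 9 libraries, against 20.1 ± 2.28 CPM in WT31, 28.6 ± 2.16 in D4M and 80.9 ± 6.04 in HCmel12. With 0 counts in a library of the smallest depth, up to 3 counts remain possible, so absence is limited to that depth and covers counting error only.

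Pxdn, which encodes peroxidasin, a crosslinker of collagen IV (chr12:29937608-30017658), had at most 2 counts in any library of the pair. Its level was 188, 194, 158, 179 and 125 CPM in WT31, 473, 550, 543, 589 and 576 CPM in D4M, and 105, 102, 98.1, 76.3 and 95.3 CPM in HCmel12. Each of these 15 libraries was thus above 76 CPM while the pair was at background. Ptpn13, a protein tyrosine phosphatase, had at most 1 count per library in the pair and 107 ± 19.6 CPM in WT31, 51.5 ± 4.27 in D4M and 20 ± 2.76 in HCmel12. The latrophilin Adgrl3 had at most 3 counts and 45.6 ± 8.13 CPM in WT31, 35.1 ± 3.16 in D4M and 33.8 ± 4.69 in HCmel12. Ptgr1, a prostaglandin reductase, had at most 5 counts and 39.1 ± 10.8 CPM in WT31, 36 ± 15 in D4M and 25.5 ± 3.88 in HCmel12.

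Gpc4, a cell-surface glypican on chromosome X, was limited to 1 count in the pair, with 43.7 ± 4.15 CPM in WT31, 90.9 ± 12.1 in D4M and 9.32 ± 0.987 in HCmel12. Runx3, a transcription factor on chromosome 4, had at most 4 counts, with 88 ± 24.1 CPM in WT31, 17.6 ± 3.59 in D4M and 48 ± 4.65 in HCmel12. The membrane-type protease Mmp16 had at most 1, with 24.9 ± 0.696 CPM in WT31, 10.9 ± 2.22 in D4M and 16.8 ± 2.19 in HCmel12. The other 2 of the 12 genes with the largest separation cannot be assigned firmly to 1 copy: 93.4% of the 31-mers of the H2A histone gene Hist1h2ap and 66.2% of those of the protocadherin Pcdhgc3 occur in other genes. Hist1h2ap had 0 counts in the pair and 172 ± 45.1 CPM in WT31, 190 ± 17.5 in D4M and 144 ± 32.4 in HCmel12. Pcdhgc3 had at most 9.7 counts in the pair and 654 ± 38.5 CPM in WT31, 549 ± 17 in D4M and 311 ± 48.2 in HCmel12. Further genes of the switched-off class included Igfbp5, Cebpa, Gatm, Tenm3, Sox13 and Fat4, and none of the 40 reached more than 3 counts in a library of either line.

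**Figure D2:**
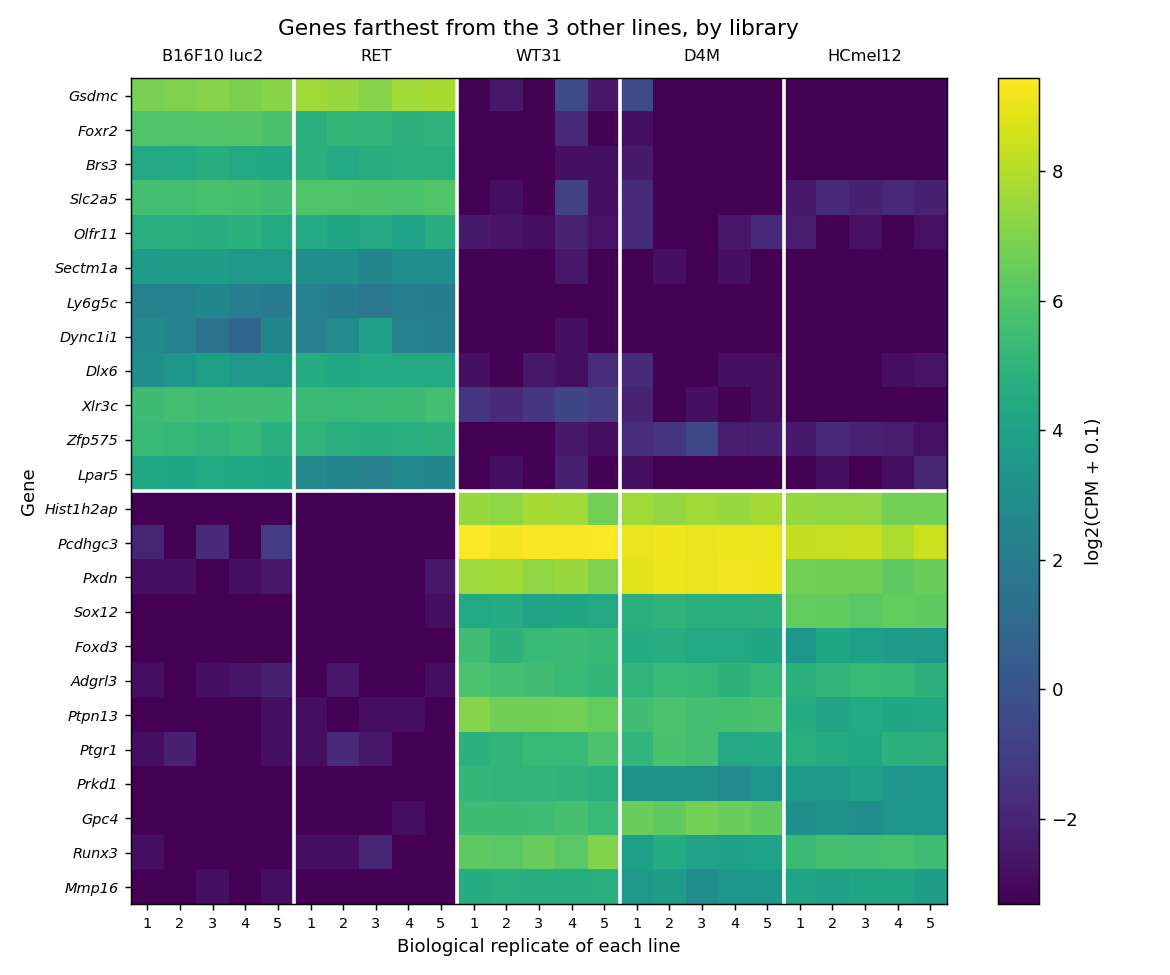
log2(CPM + 0.1) of the 12 higher (top) and 12 lower (bottom) genes with the largest separation, for each of the 25 libraries, grouped by line (x axis, replicate number). Every gene of the upper block is bright in the 10 libraries of B16F10 luc2 and RET and has at most 17 counts in each of the other 15. The lower block is the reverse, with at most 9.7 counts in each library of the pair.

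The list for the ERK pathway held more lower than higher genes. Of 55 tested genes listed for ERK output and feedback, 14 (25.5%) were lower in the pair and 3 (5.45%) higher. Over all tested genes the shares were 8.46% and 11.0%. With a limit of 2-fold in each comparison, 6 were lower and 1 higher. The list also holds components of the pathway itself, so it is not a list of induced genes alone. The median over the list of the mean of the 6 log2 differences was -0.80, and over all tested genes it was -0.02. The largest separations were those of Etv5, Etv4 and Spry4. As for every list below, the list was drawn up with earlier results of these libraries known, so its counts are a description. The shares over all tested genes, 8.46% lower and 11.0% higher, apply to every list below as well.

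Etv5, an ETS transcription factor induced by ERK (chr16:22381309-22439719), was at 18.3, 10.4, 7.63, 11 and 13.4 CPM in B16F10 luc2 and 8.66, 17.9, 19.1, 10.9 and 11.7 CPM in RET. In the other lines it was at 321, 497, 353, 416 and 405 CPM in WT31, 129, 127, 127, 121 and 122 CPM in D4M, and 169, 199, 187, 151 and 180 CPM in HCmel12. The highest library of the pair, 19.1 CPM, was below the lowest of the others, 121 CPM, and B16F10 luc2 and RET did not differ detectably (log2 difference B16F10 luc2 minus RET -0.16, SE 0.22, adjusted p = 0.567). The smallest of its 6 log2 differences, called the gap below, was -3.26 ± 0.17 (SE). Of its 31-mers 30.3% are shared, mainly with the pseudogene Gm4798.

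Etv4 had 5.37 ± 2.17 CPM in B16F10 luc2 and 3.63 ± 0.734 in RET, against 109 ± 21.2 in WT31, 90.2 ± 9.4 in D4M and 38.5 ± 5.75 in HCmel12, with a gap of -2.93 ± 0.23. Spry4, a Sprouty feedback inhibitor, had 4.92 ± 2.04 CPM in B16F10 luc2 and 2.46 ± 0.719 in RET, against 151 ± 52.8 in WT31, 176 ± 50.1 in D4M and 35.4 ± 6.44 in HCmel12, with a gap of -2.91 ± 0.38. Dusp6, the phosphatase of ERK itself, had 91.7 ± 9.2 CPM in B16F10 luc2 and 105 ± 7.87 in RET, against 247 ± 51.4 in WT31, 165 ± 61.1 in D4M and 365 ± 36.5 in HCmel12. Etv1, Spry2, Spred2, Spred3, Dusp5 and Trib1 were lower too, as were the listed Ksr1 and Bcl2l11, which are not read as genes induced by ERK. So were Mapk3 (131 ± 12.2 and 134 ± 6.37 CPM in the pair, 200 to 254 elsewhere), which encodes ERK1, and Map2k1 (94.6 ± 6.2 and 89.3 ± 3.29 CPM in the pair, 108 to 135 elsewhere), which encodes MEK1. The higher genes included Map2k2 (263 ± 12.7 and 214 ± 16.8 CPM in the pair, 133 to 162 elsewhere), which encodes MEK2, and the ephrin receptor Epha4.

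**Figure D3:**
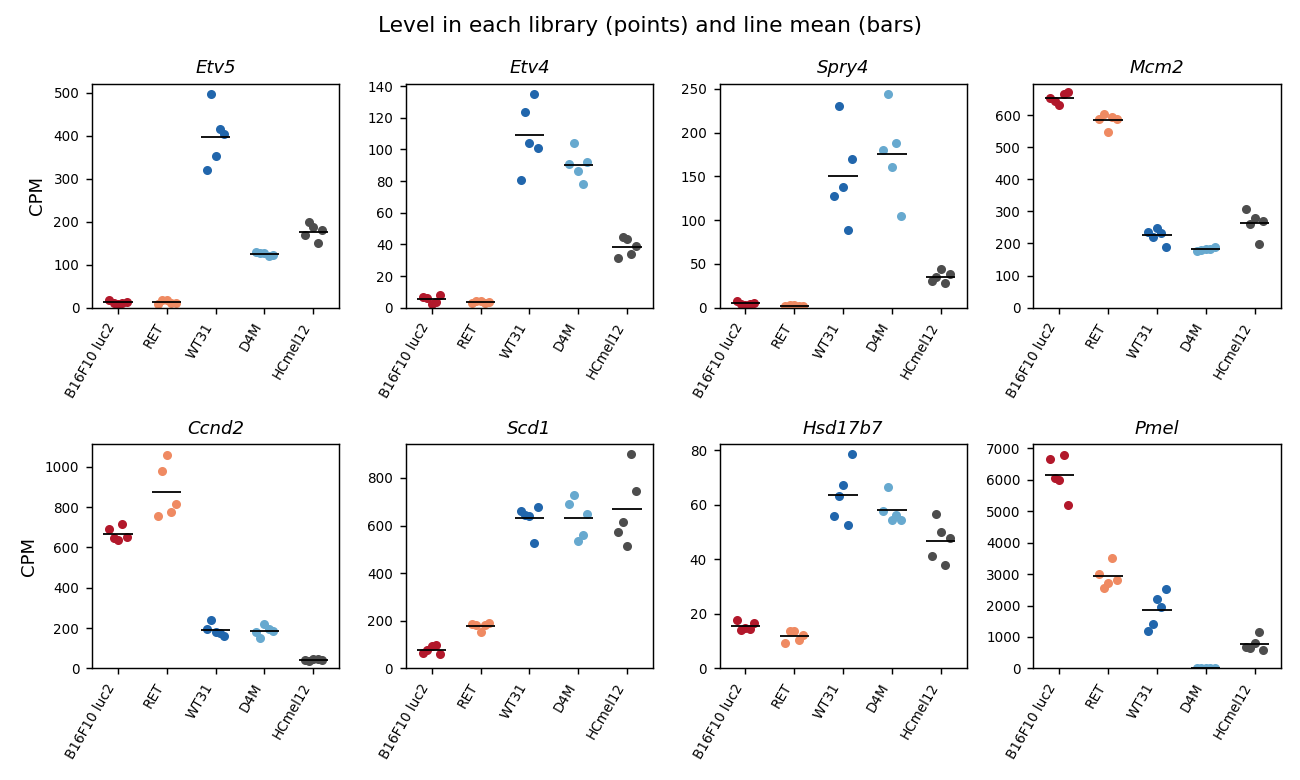
CPM in each library (points) and line mean (bars) for 8 members, each panel with its own linear axis from 0. Etv5, Etv4, Spry4, Scd1 and Hsd17b7 are low in both lines of the pair, Mcm2 and Ccnd2 are high in both, and Pmel is high in both with a wide spread among the other lines.

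The list for receptor tyrosine kinases and their ligands held 7 lower genes of 54 tested (13%) and no higher gene. They were the ligands Pdgfc, Pdgfa and Hbegf, the receptors Ror1, Fgfr1 and Tyro3, and Igf2r, a listed receptor that is not a kinase. Pdgfa had 23 ± 1.78 CPM in B16F10 luc2 and 17.9 ± 2.78 in RET, against 50.9 ± 12.2 in WT31, 128 ± 15.6 in D4M and 101 ± 15.8 in HCmel12. Fgfr1 had 0.217 ± 0.0753 CPM in B16F10 luc2 and 4.37 ± 0.664 in RET, against 49.4 ± 6.78 in WT31, 248 ± 14.6 in D4M and 7.09 ± 0.88 in HCmel12. Ror1 was close to its limit, with 0.0159 ± 0.0219 CPM in B16F10 luc2 and 0.0863 ± 0.0521 in RET, against 19.9 ± 2.04 in WT31, 0.211 ± 0.0901 in D4M and 1.85 ± 0.73 in HCmel12. It lost its call with library size as the only scaling, with no filter, at a limit of 0.01, on log2(TPM + 1), without RET replicate 2, 4 or 5 and without D4M replicate 2, 3 or 5 (adjusted p from 0.0374 to 0.586).

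Among 16 tested genes for RET itself, its co-receptors, ligands and adaptors, 1 was higher and 3 were lower (18.8%). Dok5, an adaptor that binds the RET receptor, was the higher one with 20.2 ± 4.83 CPM in B16F10 luc2 and 9.56 ± 1.25 in RET, against 0.662 ± 0.318 in WT31, 0.488 ± 0.233 in D4M and 0.0973 ± 0.0738 in HCmel12. Gdnf, a RET ligand, had at most 2 counts in the pair and 1.96 ± 0.497 CPM in WT31, 2.26 ± 0.585 in D4M and 1.84 ± 0.611 in HCmel12. The co-receptor Gfra4 (0.478 ± 0.161 and 1.31 ± 0.264 CPM in the pair, 1.91 to 8.58 elsewhere) and the adaptor Dok1 (26.9 ± 1.1 and 28.2 ± 1.4 CPM in the pair, 35.1 to 82.9 elsewhere) were the other lower genes. Only 1 gene of the list was lower when library size alone set the scaling, and the same number under the filter of 10 counts per library. The Gfra4 call was lost without RET replicate 1 (adjusted p = 0.0604), with library size as the only scaling (0.112) and at a limit of 0.01. The mouse Ret gene itself had at most 3 counts in any library of any line. The human transgene is not part of the mouse reference, so these counts do not check the label of the RET line. Of 22 genes for metallothioneins and zinc transport, 1 was lower (4.55%), the transporter Slc30a9 (70.2 ± 1.21 and 71 ± 3.8 CPM in the pair, 81.2 to 83 elsewhere), and its direction was lost when only library size was used for scaling (log2 0.01) and its call on log2(TPM + 1). Mt1, whose promoter drives the transgene, was 355 ± 52.1 CPM in B16F10 luc2 and 573 ± 59.1 in RET, against 201 ± 63 in WT31, 269 ± 42.3 in D4M and 358 ± 41 in HCmel12. RET was the highest line, above B16F10 luc2 (log2 difference B16F10 luc2 minus RET -0.70, SE 0.15, adjusted p = 0.000291).

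Genes altered by design in these lines were read in every line. The mouse Nras gene had 108 ± 2.88 CPM in B16F10 luc2 and 96.2 ± 1.06 in RET, against 167 ± 17.9 in WT31, 143 ± 5.52 in D4M and 147 ± 11 in HCmel12, lower in the pair with a gap of -0.40 ± 0.06. The mutated NRAS of WT31 is a transgene, described by the study as human, so these counts do not check it. Cdkn2a, the INK4a locus, had 0 counts in all 10 libraries of the pair, 2.83 ± 0.236 CPM in WT31, 0.0615 ± 0.0487 in D4M and 203 ± 17.8 in HCmel12. Its call rests on D4M with at most 3 counts per library, which is near background, and was lost on log2(TPM + 1). The neighbouring Cdkn2b had at most 1 count in the pair and in D4M and was at 41.9 ± 9.22 CPM in WT31 and 11.4 ± 2.72 in HCmel12. Hgf had 0 counts in the pair, at most 1 in WT31, 2.63 ± 0.87 CPM in D4M and 94.8 ± 14.1 in HCmel12, whose mouse model is named for HGF. Transcripts of a transgene and of the mouse gene itself were not told apart.

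Braf, Cdk4 and Trp53 were not members of the called set. Braf had 52.9 ± 4.75 CPM in B16F10 luc2 and 56.4 ± 3.76 in RET, against 24.8 ± 2.73 in WT31, 26.4 ± 1.06 in D4M and 70.1 ± 4.19 in HCmel12. For Cdk4 the values were 619 ± 9.78 CPM in B16F10 luc2 and 559 ± 33.5 in RET, against 635 ± 42.8 in WT31, 570 ± 14.4 in D4M and 591 ± 9.24 in HCmel12. Trp53 had 196 ± 11 CPM in B16F10 luc2 and 190 ± 3.51 in RET, against 206 ± 18.9 in WT31, 250 ± 13.5 in D4M and 229 ± 26 in HCmel12. Of 43 drivers and suppressors 4 were higher (9.30%), among them Akt1 (1170 ± 26.8 and 888 ± 40.1 CPM in the pair, 432 to 526 elsewhere), Ezh2 (224 ± 22.3 and 217 ± 12.2 CPM in the pair, 117 to 124 elsewhere) and Arid2. The 6 lower ones (14%) were Cdkn2a, Nras, Mdm4, Rac1, Map2k1 and Smad4. The shares over all tested genes were 11.0% higher and 8.46% lower. Of 40 genes activated by p53, 6 were higher (15%) and 1 lower (2.50%). The higher genes included the DNA repair gene Xpc (31.8 ± 0.65 and 35.6 ± 1.6 CPM in the pair, 12.3 to 19.1 elsewhere), Tigar (47.6 ± 3.34 and 74.7 ± 2.64 CPM in the pair, 15.7 to 30.8 elsewhere) and Ercc5, besides Ano3, Fdxr and Apaf1, and Xpc and Tigar lie on chromosome 6. The lower gene was the kinase Plk2 (11 ± 2.11 and 13.3 ± 2.36 CPM in the pair, 30.9 to 168 elsewhere).

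By counts, the pigment list held more higher than lower genes, and the list of transcription factors of the lineage more lower than higher. Neither Tyr, Dct and Tyrp1 nor Mitf, Sox10 and Pax3 were in the called set, as given below. Of 42 tested pigment and melanosome genes, 11 were higher in the pair (26.2%) and 2 lower (4.76%). With a limit of 2-fold in each comparison, 1 was higher and 1 lower. D4M, which lacks the melanocyte programme, lies below the pair for nearly every such gene, so the calls turn on WT31 and HCmel12. Tspan10, a tetraspanin of pigment cells, had 431 ± 32.4 CPM in B16F10 luc2 and 196 ± 28.3 in RET, against 82.5 ± 37.1 in WT31, 0.0828 ± 0.185 in D4M and 73.1 ± 29.6 in HCmel12. Gpnmb, a melanosomal glycoprotein on chromosome 6, had 8360 ± 458 CPM in B16F10 luc2 and 4660 ± 279 in RET, against 2700 ± 508 in WT31, 220 ± 48.3 in D4M and 2690 ± 112 in HCmel12. Pmel, which forms the fibrils on which melanin is laid down, had 6130 ± 630 CPM in B16F10 luc2 and 2920 ± 370 in RET, against 1850 ± 558 in WT31, 2.08 ± 3.75 in D4M and 779 ± 232 in HCmel12. Its call was lost with edgeR (smallest log2 difference 0.66, adjusted p = 0.104) and with DESeq2. The trafficking genes Myo5a (478 ± 61.9 and 480 ± 14.8 CPM in the pair, 179 to 291 elsewhere), Rab38, Mlph, Mreg, Hps1, Hps3 and Bloc1s5 made up most of the rest, with Gmpr.

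The enzymes of melanin synthesis were not in the called set. Tyr, the rate-limiting enzyme, had 1130 ± 90.6 CPM in B16F10 luc2 and 219 ± 27.2 in RET, against 3980 ± 404 in WT31, 0.205 ± 0.343 in D4M and 12.5 ± 9.9 in HCmel12. Dct, which acts later in the pathway, had 5300 ± 201 CPM in B16F10 luc2 and 3510 ± 348 in RET, against 6830 ± 1070 in WT31, 2.44 ± 4.64 in D4M and 3010 ± 1150 in HCmel12. Tyrp1 was above the other lines in mean, with 14000 ± 358 CPM in B16F10 luc2 and 8450 ± 790 in RET, against 3770 ± 963 in WT31, 5.98 ± 11.8 in D4M and 8340 ± 899 in HCmel12, but HCmel12 lay next to RET. Cd63 (594 ± 53 and 537 ± 54.3 CPM in the pair, 823 to 888 elsewhere) was lower in the pair, as was Atp6v0d2, which had at most 3 counts in a library of the pair and whose call was lost on log2(TPM + 1), at a limit of 0.01 and when single libraries were left out.

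Of 45 tested transcription factors of melanocytes and neural crest, 10 were lower (22.2%) and 2 higher (4.44%), with a list median of -1.97. Besides Foxd3 and the Etv factors above, Id4 and Lef1 were among the lower genes. Id4, an inhibitor of helix-loop-helix factors, had at most 2 counts in the pair and 29.3 ± 8.06 CPM in WT31, 12.7 ± 1.28 in D4M and 3.81 ± 0.853 in HCmel12. Lef1, a nuclear partner of beta-catenin, had 0.216 ± 0.203 CPM in B16F10 luc2 and 0.0079 ± 0.0177 in RET, against 94.4 ± 10.5 in WT31, 3.56 ± 0.673 in D4M and 4.07 ± 0.928 in HCmel12. Sox2 had 0 counts in all 10 libraries of the pair, and its line means elsewhere ran from 0.0566 CPM in HCmel12 to 248 CPM in D4M. Its call rests on HCmel12, whose highest library was at 0.121 CPM, which is near background. Tbx3, Pou3f2 and Snai2 were the remaining lower genes. Tfap2a (97.7 ± 5.84 and 100 ± 9.2 CPM in the pair, 59.3 to 77.7 elsewhere) and Ets1 (438 ± 18.6 and 466 ± 25.2 CPM in the pair, 90.9 to 323 elsewhere) were higher. The lineage regulators Mitf, Sox10 and Pax3 did not separate the pair from the others. Mitf had 692 ± 81.8 CPM in B16F10 luc2 and 434 ± 57.4 in RET, against 416 ± 82.4 in WT31, 6.38 ± 0.411 in D4M and 646 ± 127 in HCmel12. Sox10 had 613 ± 31.3 CPM in B16F10 luc2 and 547 ± 47.5 in RET, against 897 ± 66.1 in WT31, 0.552 ± 0.872 in D4M and 826 ± 58.9 in HCmel12. For Pax3 the values were 177 ± 6.78 CPM in B16F10 luc2 and 182 ± 12.1 in RET, against 221 ± 14.3 in WT31, 21 ± 1.07 in D4M and 219 ± 20.3 in HCmel12.

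Genes for the matrix, its proteases and its receptors were lower more often than higher. Of 45 tested matrix proteases and inhibitors 11 were lower (24.4%) and none was higher. Of 43 integrins and cadherins 8 were lower (18.6%), 3 of them on chromosomes 13, 14, 18 or X, whose genes were often lower in the pair, and 1 was higher (2.33%). Of 68 collagens, laminins and other matrix proteins 8 were lower (11.8%) and 2 higher (2.94%). In many of these genes D4M, the line with fibroblast transcripts, was far above all others, but the calls require WT31 and HCmel12 to lie above the pair as well.

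Mmp2, gelatinase A, was at 7.22, 5.97, 6.23, 5.94 and 5.81 CPM in B16F10 luc2 and 5.3, 6.35, 5.44, 4.64 and 5.56 CPM in RET. Its level was 240 ± 39.4 CPM in WT31, 49.9 ± 10.2 in D4M and 52.2 ± 3.52 in HCmel12, and the lowest of those 15 libraries read 39.5 CPM. Serpine2, a protease inhibitor, had 0.0971 ± 0.0592 CPM in B16F10 luc2 and 2.51 ± 1.47 in RET, against 174 ± 46.3 in WT31, 120 ± 38.3 in D4M and 305 ± 48.1 in HCmel12. The lysosomal protease Ctsl (40.6 ± 0.969 and 57.1 ± 2.21 CPM in the pair, 207 to 722 elsewhere) and the sheddase Adam10 (129 ± 10.2 and 139 ± 23.6 CPM in the pair, 286 to 385 elsewhere) were lower. Mmp14, a membrane-type protease, was lower too (175 ± 3.28 and 177 ± 8.69 CPM in the pair, 202 to 394 elsewhere). Ctsk, Mmp16, Mmp19, Mmp28, Adam15 and Serpinf1 completed the list.

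The lower integrins were Itga3, Itga1 (7.16 ± 1.02 and 19.5 ± 1.84 CPM in the pair, 57.9 to 87.7 elsewhere), Itga2, Itga8 and Itgav (95.7 ± 3.8 and 84.6 ± 5.89 CPM in the pair, 135 to 265 elsewhere). Itga3 had 0.367 ± 0.145 CPM in B16F10 luc2 and 0.679 ± 0.465 in RET, against 2.64 ± 0.392 in WT31, 527 ± 91.5 in D4M and 5.29 ± 0.639 in HCmel12. Cdh6, a cadherin, had 0.25 ± 0.175 CPM in B16F10 luc2 and 0.333 ± 0.293 in RET, against 22.5 ± 3.36 in WT31, 236 ± 43.4 in D4M and 2.41 ± 1.24 in HCmel12, and Cdh24 and Nectin1 were lower as well, the Nectin1 call being lost on log2(TPM + 1) (adjusted p = 0.117). Itga9 was the higher one (72 ± 6.11 and 44.8 ± 5.23 CPM in the pair, 0.754 to 29.7 elsewhere). Lower matrix genes included basement membrane chains, Col4a1, Col4a2 (10.1 ± 0.53 and 14.1 ± 1.75 CPM in the pair, 40.1 to 435 elsewhere), Lama5, Lamb1 and Col18a1. Lamb1, a laminin chain, had 6.28 ± 0.546 CPM in B16F10 luc2 and 2.56 ± 1.25 in RET, against 86.6 ± 15.8 in WT31, 613 ± 37.7 in D4M and 27.7 ± 6.75 in HCmel12. Col18a1 had 0.248 ± 0.114 CPM in B16F10 luc2 and 0.95 ± 0.303 in RET, against 10.1 ± 3.77 in WT31, 2160 ± 163 in D4M and 7.38 ± 4.68 in HCmel12. Agrn, Thbs1 and Col28a1 were also lower, the Col28a1 call being lost on log2(TPM + 1) (adjusted p = 0.074). Col15a1 (17.8 ± 3.24 and 20.2 ± 7.94 CPM in the pair, 3.85 to 7.68 elsewhere) and Col20a1 were higher.

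Of 51 tested TGF-beta and BMP genes 12 were lower (23.5%) and 1 higher (1.96%), and 5 of the 12 lie on chromosomes 13, 14, 18 or X. The lower ligands were Tgfb1 (18.2 ± 2.58 and 2.1 ± 0.419 CPM in the pair, 39.5 to 98.1 elsewhere), Bmp4 and Gdf11. The Bmp4 call rests on D4M, with at most 5 counts in a library, and was lost on log2(TPM + 1) (adjusted p = 0.118). Among proteins that bind or process ligands, Ltbp1, Ltbp3 and Bmp1 were lower, Ltbp1 with 1.73 ± 0.356 CPM in B16F10 luc2 and 1.69 ± 1.05 in RET, against 89.1 ± 22.8 in WT31, 356 ± 36.4 in D4M and 11.4 ± 3.91 in HCmel12. The receptors Bmpr1a and Tgfbr3 and the transducers Smad2 (46.7 ± 1.06 and 52.3 ± 2.35 CPM in the pair, 63.8 to 93.9 elsewhere), Smad3 and Smad4 were lower as well, with Skil. Fstl3, an inhibitor of activins, was the higher gene, with 4.46 ± 0.388 CPM in B16F10 luc2 and 13.2 ± 0.849 in RET, against 0.502 ± 0.181 in WT31, 0.424 ± 0.176 in D4M and 0.339 ± 0.29 in HCmel12. Of its transcript 31-mers 46.7% are shared, mainly with the neighbouring Prss57. Of 33 genes for Yap, Tead factors and their targets, 5 were lower (15.2%) and 2 higher (6.06%). The lower ones were Wwtr1, Tead1 (86.4 ± 6.38 and 65.9 ± 10.1 CPM in the pair, 121 to 261 elsewhere), Tead2, Tead3 and Fjx1. Wwtr1, which encodes Taz, had 45.7 ± 1.3 CPM in B16F10 luc2 and 54.8 ± 2.17 in RET, against 268 ± 4.6 in WT31, 479 ± 35.3 in D4M and 89.1 ± 11.4 in HCmel12. The higher ones were the Tead cofactors Vgll4 and Vgll3. Vgll3 was at 277, 355, 344, 356 and 308 CPM in B16F10 luc2 and 186, 250, 255, 188 and 225 CPM in RET, and no library of the other lines exceeded 39 CPM.

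Of 47 Wnt pathway genes 6 were lower (12.8%), Fzd8, Nkd2, Lef1, Tcf7, Ror1 and Porcn, 3 of them on chromosomes 13, 14, 18 or X. The receptor Fzd8 had at most 1 count in a library of the pair and 5.12 ± 0.312 CPM in WT31, 14.1 ± 1.05 in D4M and 1.5 ± 0.422 in HCmel12. The inhibitor Nkd2 had at most 2 counts in the pair and 192 ± 30.8 CPM in WT31, 1.41 ± 0.528 in D4M and 52.8 ± 13.1 in HCmel12. Tcf7, a partner of beta-catenin like Lef1, had 4.77 ± 1.03 CPM in B16F10 luc2 and 4.65 ± 0.912 in RET, against 192 ± 16.4 in WT31, 36.7 ± 5.14 in D4M and 26.3 ± 0.854 in HCmel12. The co-receptor Lrp6 was higher (2.13%; 99.2 ± 12.3 and 182 ± 19.6 CPM in the pair, 61.6 to 69.9 elsewhere). Of 68 axon guidance genes 12 were lower (17.6%), 9 higher (13.2%) and 47 not called. Over all tested genes the shares were 8.46% lower and 11.0% higher, so the higher share was close to that of all genes. Tenm3 had at most 1 count in the pair and 3.82 ± 0.645 CPM in WT31, 471 ± 53.5 in D4M and 42 ± 6.62 in HCmel12. Sema5a, a semaphorin, had 0.0976 ± 0.0619 CPM in B16F10 luc2 and 0.116 ± 0.0808 in RET, against 3.36 ± 0.617 in WT31, 320 ± 41 in D4M and 9.74 ± 3.35 in HCmel12. The ephrin Efnb2 had 0.356 ± 0.136 CPM in B16F10 luc2 and 0.11 ± 0.0597 in RET, against 6.96 ± 1.33 in WT31, 126 ± 13.1 in D4M and 17.3 ± 5.21 in HCmel12. On the higher side the semaphorin receptor Plxnd1 had 1120 ± 191 CPM in B16F10 luc2 and 830 ± 282 in RET, against 97.9 ± 12.9 in WT31, 63.4 ± 3.19 in D4M and 188 ± 28.1 in HCmel12. Plxna1, of the same family, had 599 ± 32 CPM in B16F10 luc2 and 632 ± 31.7 in RET, against 188 ± 27.1 in WT31, 223 ± 8.93 in D4M and 205 ± 16.9 in HCmel12. Both lie on chromosome 6.

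Genes of lipid synthesis were lower more often than higher. Of 47 genes for cholesterol and fatty acid synthesis 14 were lower (29.8%), 3 of them on chromosomes 13, 14, 18 or X, with a list median of -0.70. On log2(TPM + 1) the count was 9. The 1 higher gene, Thrsp, had at most 23 counts in any library and lost its call under several settings. Scd1, the stearoyl-CoA desaturase, was at 66.2, 75.8, 92.6, 99.3 and 61.9 CPM in B16F10 luc2 and 186, 184, 152, 183 and 190 CPM in RET. The other lines read 631 ± 59.3 CPM in WT31, 633 ± 82.9 in D4M and 669 ± 154 in HCmel12, and the lowest of their 15 libraries had 514 CPM. The 2 lines of the pair differed from each other, RET being the higher (log2 difference B16F10 luc2 minus RET -1.20, SE 0.14, adjusted p = 4.36e-08).

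Hsd17b7, an enzyme of cholesterol synthesis, had 15.5 ± 1.61 CPM in B16F10 luc2 and 11.9 ± 1.94 in RET, against 63.5 ± 10.2 in WT31, 57.9 ± 4.94 in D4M and 46.8 ± 7.32 in HCmel12. Hmgcs1, which acts early in the pathway, had 86.7 ± 9.86 and 71.6 ± 4.75 CPM in the pair, 111 to 295 elsewhere. The squalene synthase Fdft1 was lower (48 ± 7.06 and 50.3 ± 4.6 CPM in the pair, 84.7 to 152 elsewhere), as were Sc5d, Pmvk and Tm7sf2. The regulator Srebf2 followed (206 ± 18.2 and 200 ± 12.6 CPM in the pair, 242 to 337 elsewhere). Fads1, Fads2, Elovl1 and Elovl5, which desaturate and elongate fatty acids, were lower as well. The separations of most of these were below 2-fold: 2 of the 14 were at least 2-fold lower in each of the 6 comparisons.

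Glycolysis and the hypoxia response held 11 higher genes of 53 (20.8%) and 5 lower (9.43%), against 11.0% and 8.46% of all tested genes. With a limit of 2-fold in each comparison, 2 were higher and 2 lower. Gapdh, an enzyme of the common steps, had 6630 ± 653 CPM in B16F10 luc2 and 8640 ± 528 in RET, against 2550 ± 132 in WT31, 4080 ± 450 in D4M and 3460 ± 77.3 in HCmel12. For Tpi1, of the same steps, the values were 1120 ± 114 CPM in B16F10 luc2 and 1190 ± 90.2 in RET, against 325 ± 20.5 in WT31, 543 ± 39.1 in D4M and 517 ± 42.2 in HCmel12. Eno1 (3800 ± 276 and 3450 ± 153 CPM in the pair, 1570 to 2230 elsewhere), Pgk1, Aldoa, Pgam1 and Ldha (1460 ± 159 and 1470 ± 55.3 CPM in the pair, 587 to 1230 elsewhere) were higher, as was Hk2, which opens the pathway. The glucose transporter Slc2a3 had 32.4 ± 2.77 CPM in B16F10 luc2 and 58.5 ± 6.34 in RET, against 0.196 ± 0.169 in WT31, 2.51 ± 0.766 in D4M and 11.5 ± 6.91 in HCmel12. Car9 and Kdm3a were also higher. Of the 11, 5 lie on chromosome 6, as do 8 of the 53 tested genes of the list. The lower genes were Stc2 (0 counts in the pair), Adm, Epas1, Bnip3l and Ero1l, which belong to the hypoxia part of the list.

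In the list for Atf4 and amino acid stress 8 of 45 genes were higher (17.8%) and 1, Stc2, lower (2.22%). Of the 8, 2 lie on chromosome 6, Mthfd2 and Gars. The mitochondrial folate enzyme Mthfd2 had 224 ± 39.8 CPM in B16F10 luc2 and 261 ± 37.2 in RET, against 50.8 ± 7 in WT31, 105 ± 11.7 in D4M and 99.6 ± 33.6 in HCmel12. Gars, the glycyl-tRNA synthetase, had 557 ± 34.6 CPM in B16F10 luc2 and 565 ± 38.6 in RET, against 187 ± 14.3 in WT31, 310 ± 22.6 in D4M and 243 ± 26.8 in HCmel12. Atf4 itself had 344 ± 42.8 CPM in B16F10 luc2 and 313 ± 33.9 in RET, against 186 ± 21 in WT31, 250 ± 37.3 in D4M and 196 ± 43.1 in HCmel12. Aars, Wars, Mthfd1l and Phgdh were also higher. The count of higher genes fell to 4 at an adjusted p under 0.01 and to 2 with a limit of 2-fold in each comparison. HCmel12 replicate 4 mattered here. Its Trib3 level was 65.4 CPM, against 2.03 to 6.59 CPM in the other HCmel12 libraries, and without that library 14 genes of the list were higher. Trib3 itself had 30.4 ± 4.95 CPM in B16F10 luc2 and 22.3 ± 9.31 in RET, 0.769 ± 0.188 CPM in WT31, 10.3 ± 2.28 in D4M and 16 ± 27.7 in HCmel12. Its call was lost with edgeR (log2 0.48, adjusted p = 0.471), with DESeq2 (0.45), with no filter and on log2(TPM + 1). The Trib3 call was also lost at a limit of 0.01, with a replicate block and without RET replicate 2 or D4M replicate 1 or 2.

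Of 62 cell cycle genes 11 were higher in the pair (17.7%) and none lower, with a list median of 0.16. Without HCmel12 replicate 4 the counts were 7 and 1, and 3 of the 11 lie on chromosome 6. At an adjusted p under 0.01 the higher genes numbered 7, and with a limit of 2-fold in each comparison 2. Ccnd2, which encodes cyclin D2 (chr6:127125162-127152193, minus strand), was at 690, 645, 636, 714 and 654 CPM in B16F10 luc2 and 755, 981, 1060, 775 and 815 CPM in RET, with 191 ± 29.9 CPM in WT31, 187 ± 24.4 in D4M and 43.6 ± 4.12 in HCmel12. Mcm2, a subunit of the replicative helicase (chr6:88883474-88898780, minus strand), was at 652, 643, 632, 664 and 673 CPM in B16F10 luc2 and 588, 603, 548, 594 and 587 CPM in RET, with 225 ± 22.1 CPM in WT31, 183 ± 4.04 in D4M and 263 ± 39.9 in HCmel12. Neither gene had overlapping libraries between the pair and the rest. The licensing factor Cdt1 (165 ± 18.1 and 147 ± 14.4 CPM in the pair, 52.2 to 87.1 elsewhere), Cdk2 (654 ± 35.9 and 348 ± 38 CPM in the pair, 48.9 to 236 elsewhere), Rrm1, Rrm2, Foxm1, Hells, Uhrf1, Tyms and Mcm3 were the other higher genes.

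Of 60 genes of glutathione metabolism and oxidative stress defence 5 were higher (8.33%) and 8 lower (13.3%), against 11.0% and 8.46% of all tested genes. The higher ones were Gstt3, Slc40a1, Ftl1, Gstm2 and Hmox1, of which the iron exporter Slc40a1 had 42.4 ± 5.85 CPM in B16F10 luc2 and 9.89 ± 1.42 in RET, against 4.53 ± 0.714 in WT31, 0.717 ± 0.393 in D4M and 1.84 ± 0.714 in HCmel12. Acsl4, which supplies polyunsaturated lipids to membranes, was the lower gene with the largest gap (41.8 ± 1.88 CPM in B16F10 luc2 and 39.5 ± 3.79 in RET, against 159 ± 8.07 in WT31, 238 ± 12.4 in D4M and 106 ± 11.5 in HCmel12), and Mgst1, Prdx4, Prdx5, Gpx1, Gstm1, Ncoa4 and Gclc followed.

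Among the immune lists, that for MHC class I held the most lower genes. Of 35 genes listed for MHC class I and antigen processing 6 were lower (17.1%) and 2 higher (5.71%), against 8.46% and 11.0% of all tested genes. B2m, the light chain of MHC class I, had 214 ± 25.9 CPM in B16F10 luc2 and 229 ± 37.9 in RET, against 390 ± 22.6 in WT31, 1780 ± 168 in D4M and 619 ± 85.9 in HCmel12. Ulbp1, a stress ligand read by natural killer cells, had 8.99 ± 0.724 CPM in B16F10 luc2 and 34.1 ± 3.51 in RET, against 141 ± 24.5 in WT31, 115 ± 16.2 in D4M and 113 ± 14.4 in HCmel12. The peptidase Erap1, which trims peptides for MHC class I, had 8.92 ± 0.703 CPM in B16F10 luc2 and 8.69 ± 0.579 in RET, against 17.2 ± 1.8 in WT31, 54.7 ± 9.13 in D4M and 34.6 ± 2.17 in HCmel12. Tapbp, H2-T22 and H2-T24 were lower too. The listed H2-DMb1 and H2-Ke6, neither of which encodes an MHC class I chain, were higher. H2-DMb1 was at a low level (0.447 ± 0.2 and 2 ± 0.383 CPM in the pair, 0.0402 to 0.129 elsewhere). H2-Ke6 had 15 ± 1.21 and 9.79 ± 0.587 CPM in the pair and 1.34 to 7.29 elsewhere. The heavy chain H2-K1 (2.23 ± 0.546 CPM in B16F10 luc2 and 6.45 ± 2.33 in RET, against 7.29 ± 2.08 in WT31, 168 ± 30.3 in D4M and 24.6 ± 15 in HCmel12) was not in the called set.

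Of 78 interferon response genes 4 were lower (5.13%), Ifitm3, Stat2, Ifngr1 and Irf2, and 1 was higher (1.28%), Herc6 on chromosome 6. All tested genes gave 8.46% lower and 11.0% higher, and neither this list nor those for NF-kB and for chemokines exceeded these shares. Ifitm3, a restriction factor for viral entry, had 10.2 ± 1.6 CPM in B16F10 luc2 and 30.6 ± 9.57 in RET, against 80.6 ± 22.1 in WT31, 319 ± 39.6 in D4M and 103 ± 20.2 in HCmel12. Of 35 genes of the NF-kB and TNF response 3 were higher (8.57%), Nfkbib, Traf3 and Tnip1, and 2 lower (5.71%), Ninj1 and Rela (55.4 ± 4.22 and 76.4 ± 4.12 CPM in the pair, 90.9 to 101 elsewhere). With DESeq2 4 genes of this list were lower, and with a limit of 2-fold in each comparison none was higher or lower. The 26 tested chemokines and checkpoint ligands held 1 lower gene (3.85%), Cd200, with at most 4 counts in a library of the pair and 167 ± 33.7 CPM in WT31, 2.31 ± 0.755 in D4M and 28.9 ± 5.34 in HCmel12.

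Hox genes had the highest share of higher genes among lists with at least 30 tested genes, 10 of 31 (32.3%), and 2 were lower (6.45%), among them Pbx2, a cofactor of Hox proteins. Of the 10, 8 lie in the Hoxa cluster on chromosome 6, where 10 of the 31 tested genes of the list are. Hoxa10 (chr6:52231197-52240854, minus strand) was at 37.7, 50.8, 47.5, 45.4 and 45.8 CPM in B16F10 luc2 and 35.7, 32.1, 32.4, 31.4 and 34.5 CPM in RET. WT31 ranged from 0.683 to 1.48 CPM, and no D4M or HCmel12 library exceeded 0.276 CPM. Hoxa9 had 3.48 ± 0.25 CPM in B16F10 luc2 and 3.52 ± 0.466 in RET, against 0.099 ± 0.0439 in WT31, 0 ± 0 in D4M and 0.00814 ± 0.0182 in HCmel12. Hoxa11 had 15.4 ± 1.39 CPM in B16F10 luc2 and 10.4 ± 1.25 in RET, against 0.415 ± 0.271 in WT31, 0.0092 ± 0.0206 in D4M and 0 ± 0 in HCmel12, and 33.9% of its 31-mers are shared with its antisense gene Hoxa11os. Hoxa2, Hoxa3, Hoxa5, Hoxa6, Hoxb13 and Hoxd4 were also higher, and none of the 10 passed a filter of at least 10 counts in every library. The Hoxb13 call was lost with edgeR (adjusted p = 0.0849), with DESeq2 (0.114), on log2(TPM + 1) (0.623) and at a limit of 0.01.

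The list of germline and placental genes held few tested genes: 4 of 15 were higher (26.7%, against 11.0% of all tested genes) and none was lower. Lin28b, an RNA-binding protein of embryonic cells, was at 6.67, 4.39, 4.45, 4.83 and 5.34 CPM in B16F10 luc2 and 5.46, 6.76, 6.9, 6.08 and 6.68 CPM in RET, and no other library exceeded 0.325 CPM. Taf9b (28.5 ± 1.78 and 23.1 ± 2.14 CPM in the pair, 0.0307 to 4.44 elsewhere), Xlr3a (27 ± 2.56 and 26.6 ± 3.04 CPM in the pair, 0.0307 to 2.54 elsewhere) and Xlr3b were the others. Among 33 imprinted genes 4 were lower (12.1%, against 8.46% of all tested genes), Zrsr1, Peg13, Inpp5f and Igf2r, and 1 higher (3.03%), Slc22a18. Zrsr1, which is expressed from the paternal copy, had 0.258 ± 0.103 CPM in B16F10 luc2 and 0.294 ± 0.114 in RET, against 23.5 ± 4.37 in WT31, 5.15 ± 0.761 in D4M and 14.1 ± 1.69 in HCmel12. Of 57 ion channel and neurotransmitter receptor genes 5 were higher (8.77%), Scn8a, Scn2a, Grik2, Grik4 and Chrnb2. The sodium channel Scn8a had 92.2 ± 5.95 CPM in B16F10 luc2 and 93.3 ± 3.73 in RET, against 22.2 ± 3.75 in WT31, 0.261 ± 0.24 in D4M and 14.9 ± 3.85 in HCmel12. Another 5 were lower (8.77%), Gria3 (0 counts in the pair), Kcnj12, Cacna1d, Kcnn2 and Trpm4. Both shares of this list were near those of all tested genes, 11.0% higher and 8.46% lower. The Gria3 call was lost on log2(TPM + 1) (adjusted p = 0.261).

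Markers of other cell types gave almost no members. None of 7 tested fibroblast, 3 leukocyte or 2 keratinocyte markers was called, and of 3 endothelial markers Vwf, on chromosome 6, was higher (1.37 ± 0.37 and 1.37 ± 0.266 CPM in the pair, 0.266 to 0.457 elsewhere). Of 5 sex chromosome markers Ddx3y was lower, with 0 counts in all 10 libraries of the pair, 67.9 ± 2.85 CPM in WT31, 58.9 ± 6.01 in D4M and 0.0404 ± 0.0286 in HCmel12. That call rests on at most 2 counts per library in HCmel12, and it was lost without HCmel12 replicate 4 (adjusted p = 0.0515), on log2(TPM + 1) and at a limit of 0.01.

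**Figure D4:**
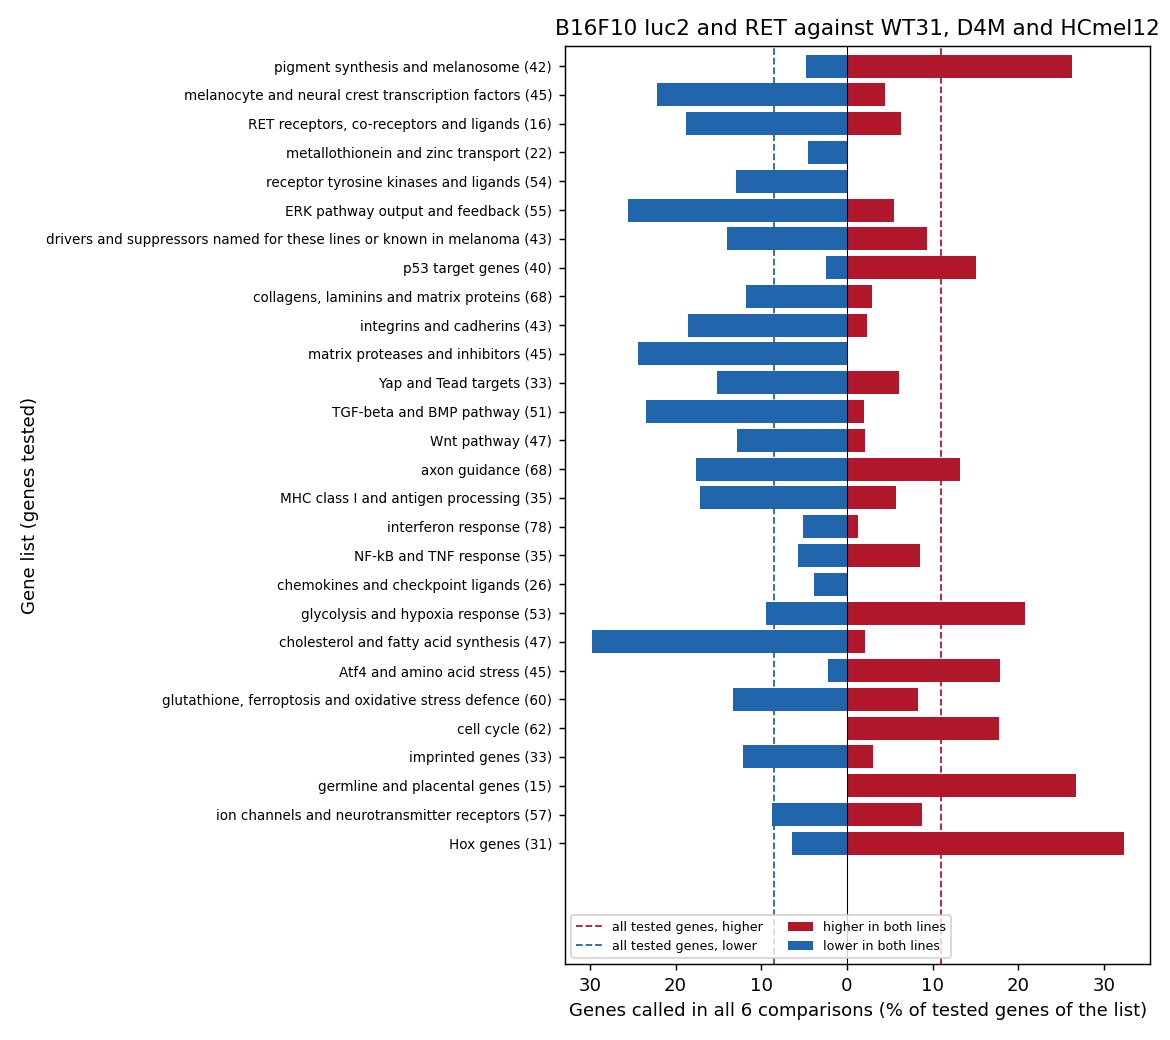
Share of the tested genes of each list (number tested in brackets) that were higher (red, right) or lower (blue, left) in both B16F10 luc2 and RET in all 6 comparisons. Dashed lines are the shares over all tested genes, 11.0% higher and 8.46% lower; Hox genes reach 32.3% higher and cholesterol and fatty acid synthesis 29.8% lower.

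The members were not spread evenly over the genome. Chromosome 6 held 291 higher genes of 776 tested (37.5%), against 9.56% of the tested genes on all other chromosomes. It supplied 17.4% of the higher genes from 5.09% of the tested genes, and only 2.45% of its genes were lower. The higher genes were also common on chromosomes 15 (19.2%), 12 (18.5%), 10 (14.5%) and 11 (14%). Lower genes were common on chromosomes X (101 of 485, 20.8%), 14 (105 of 515, 20.4%), 18 (77 of 414, 18.6%), 13 (90 of 599, 15%) and 19 (13.8%). Chromosomes 13, 14, 18 and X together held 373 lower genes, 28.9% of them, from 13.2% of the tested genes. Of 21 tested mitochondrial genes 9 were lower (42.9%).

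The separations on chromosome 6 were larger than elsewhere, with a median gap of 0.73 for its higher genes against 0.46 for higher genes on other chromosomes, and 87 of the 291 were at least 2-fold higher in each comparison. The median over its tested genes of the deviation from the mean of the 5 lines was 0.35 (log2) in B16F10 luc2, 0.57 in RET, -0.31 in WT31, -0.48 in D4M and -0.28 in HCmel12. The libraries of a line lay close together, from 0.33 to 0.36 in B16F10 luc2 and from 0.55 to 0.58 in RET, and none of the 15 other libraries was above -0.24. Chromosome 14 showed the opposite, with -0.27 and -0.21 in the pair and 0.12, 0.17 and 0.08 in the other lines, as did chromosome 18 with -0.33 and -0.16 against 0.10, 0.18 and 0.08. Over the whole of chromosome X B16F10 luc2 was at -0.31, but RET at -0.05 lay close to WT31 at -0.03, with D4M at 0.15 and HCmel12 at 0.12. DNA copy number was not measured in these libraries, and its part in these shifts was not tested.

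**Figure D5:**
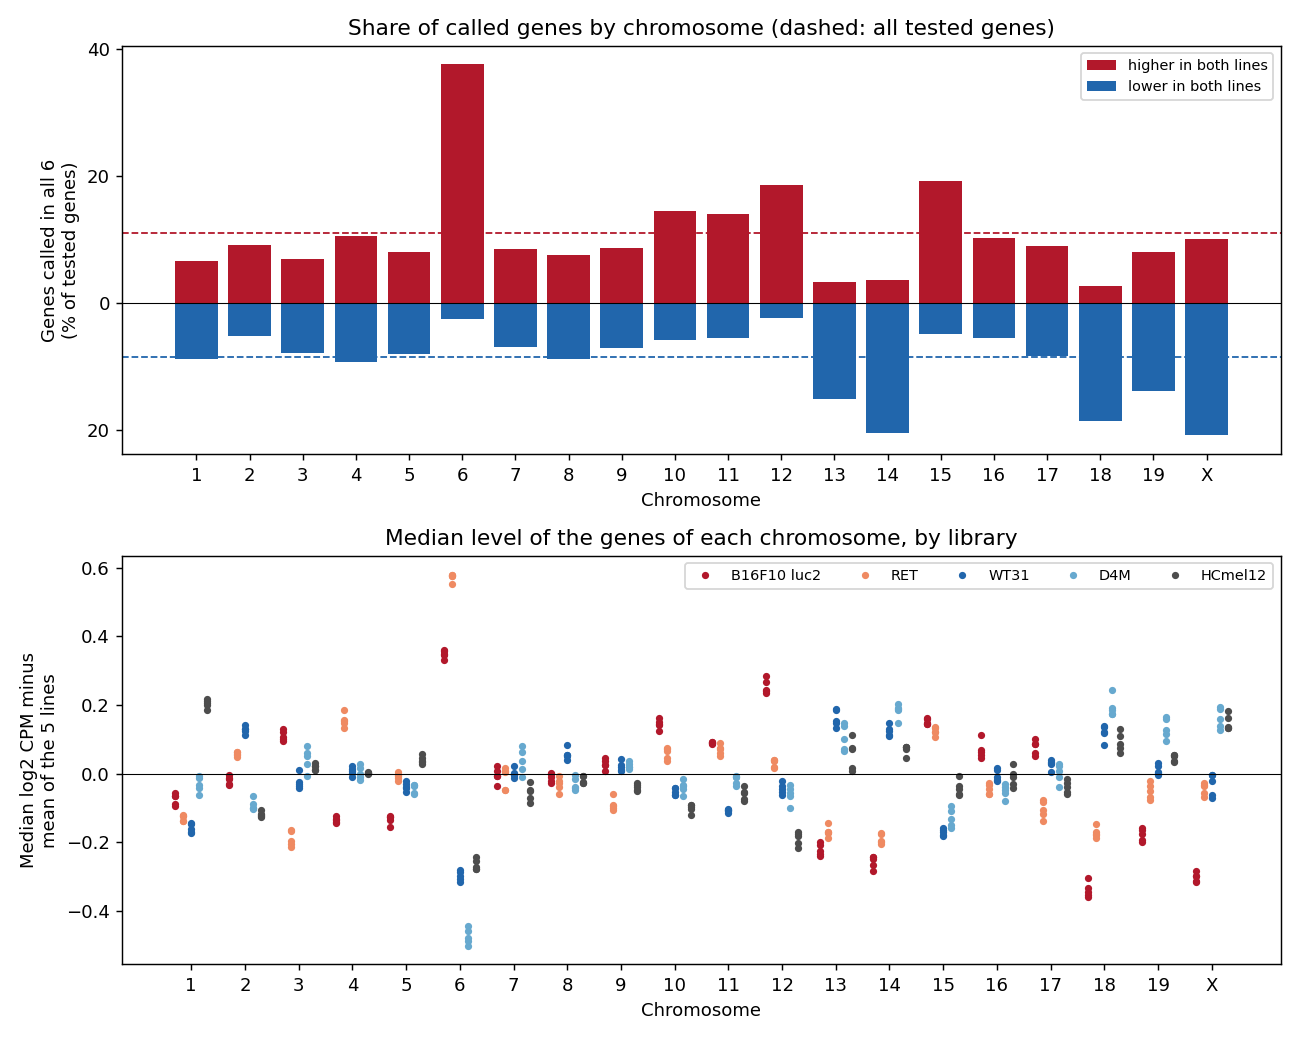
Top, share of the tested genes of each chromosome that were higher (red, up) or lower (blue, down) in both lines of the pair in all 6 comparisons; chromosome 6 reaches 37.5% higher and chromosome X 20.8% lower. Bottom, median over a chromosome's genes of log2 CPM minus the mean of the 5 lines, each point a library; on chromosome 6 the 10 libraries of B16F10 luc2 and RET lie from 0.33 to 0.58 and all others below 0.

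Within chromosome 6 the higher genes were concentrated beyond 40 Mb. From 0 to 40 Mb 15 of 161 tested genes were higher (9.32%), and from 40 to 150 Mb 276 of 615 (44.9%). In the proximal segment HCmel12 was itself high, with a median deviation of 0.66, against 0.21 in B16F10 luc2 and 0.33 in RET. On chromosome X 66 of 162 genes were lower beyond 130 Mb (40.7%) and 35 of 323 before it (10.8%). These limits were set after the profiles had been seen.

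Neighbouring genes often shared their direction. The next tested gene along the chromosome was also higher for 402 of 1670 higher genes (24.1%), against 11.0% for all genes, and without chromosome 6 the shares were 18.6% and 9.57%. For lower genes on all chromosomes the shares were 17.8% and 8.47%, and without chromosomes 6, 13, 14, 18 and X they were 13.6% and 7.22%. The longest run was of 10 adjacent tested genes on chromosome 6 (chr6:90333284-91174692), Uroc1, Zxdc, C030015A19Rik, Cfap100, Klf15, Aldh1l1, Slc41a3, Iqsec1, Nup210 and Hdac11, all higher. Another ran through Hoxa9, Hoxa10, Hoxa11, Hoxa11os, Hibadh, Tax1bp1 and Jazf1 (chr6:52223100-53068631).

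Runs were found on other chromosomes too. On chromosome 4 the peptidylarginine deiminases Padi2, Padi3 and Padi4 were higher together with Rcc2, Sdhb and Atp13a2 (chr4:140700541-141007330). Padi2 had 36.7 ± 2.95 CPM in B16F10 luc2 and 149 ± 16.3 in RET, against 2.37 ± 0.87 in WT31, 1.01 ± 0.347 in D4M and 6.31 ± 2.31 in HCmel12. On chromosome 11 a run of 7 held Nf2, the merlin tumour suppressor (186 ± 6.15 and 174 ± 3.76 CPM in the pair, 89.6 to 131 elsewhere), with Ascc2, Uqcr10, Zmat5, Cabp7, Nipsnap1 and Thoc5. On chromosome 18 the clustered protocadherins Pcdhb17, Pcdhb18, Pcdhb19, Pcdhb20, Pcdhb21 and Pcdhb22 were all at least 2-fold lower in each comparison. Pcdhb22, for example, had 0.207 ± 0.14 CPM in B16F10 luc2 and 0.61 ± 0.124 in RET, against 6.3 ± 1.27 in WT31, 6.1 ± 0.473 in D4M and 1.79 ± 0.153 in HCmel12. On chromosome 15 the neighbours Arc, Jrk, Them6 and Lynx1 were lower (chr15:74669083-74753046), Jrk and Them6 belonging to the 40 switched-off genes.

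Whether the lines of the pair differ from each other was not fixed by the rule, though the rule favours genes on which they lie close. B16F10 luc2 and RET differed at 7845 of 15247 tested genes (51.5%; adjusted p under 0.05, limma). The same test called 854 of the 1674 higher genes (51%), 461 with B16F10 luc2 above and 393 with RET above, and 528 of the 1290 lower genes (40.9%), 192 and 336. Lower genes near 0 counts in both lines can hardly show a difference, and 3 of the 40 switched-off genes did. The share of the lower genes is thus in part set by that floor, and nothing is concluded from its distance to the other shares. The median absolute log2 difference was 0.31 over all tested genes, 0.22 over the higher and 0.26 over the lower genes, and 149 of the higher and 146 of the lower genes differed more than 2-fold in their estimate.

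The largest differences within the pair were taken among the called genes of the lists and those named for their separation, 3 in each direction. Xlr3b was at 19.9, 20.2, 17.8, 19.9 and 19.9 CPM in B16F10 luc2 and 0.449, 0.334, 0.416, 0.37 and 0.46 CPM in RET (log2 difference B16F10 luc2 minus RET 5.53, SE 0.24, adjusted p = 1.14e-15), with 69% of its 31-mers shared, mainly with Xlr3a. The ephrin receptor Epha4 was at 6.55, 5.1, 5.48, 6.4 and 6.07 CPM in B16F10 luc2 and 0.633, 0.446, 0.197, 0.52 and 0.232 CPM in RET (log2 difference B16F10 luc2 minus RET 3.93, SE 0.26, adjusted p = 2.38e-12). Hoxb13 had 2.11 ± 0.534 CPM in B16F10 luc2 and 0.0468 ± 0.0179 in RET, where no library exceeded 2 counts. In the other direction Pou3f2, a neural transcription factor, had 0 counts in all libraries of B16F10 luc2 and was at 4.56, 4.29, 3.43, 3.73 and 2.86 CPM in RET. Pdgfc had 0 counts in B16F10 luc2 and at most 25 counts in a RET library. Serpine2 had 0.0971 ± 0.0592 CPM in B16F10 luc2 and 2.51 ± 1.47 in RET, with at most 4.5 counts in a library of B16F10 luc2. Hoxb13, Pou3f2, Pdgfc and Serpine2 are at or near 0 counts in 1 of the 2 lines, so for them no fold or p is given. Pou3f2, Pdgfc and Serpine2 had higher line means in each of the other 3 lines than in RET.

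The pair also differed in pigment genes outside the called set. Tyr was 2.38 higher on the log2 scale in B16F10 luc2 (SE 0.16, adjusted p = 2.06e-12), Slc45a2 1.33 (SE 0.13, adjusted p = 5.94e-09) and Kit, the receptor for stem cell factor, 3.33 (SE 0.41, adjusted p = 2.03e-07). Over whole chromosomes the medians of the 5 libraries of each line were compared by an exact two-sided permutation test, whose 252 arrangements allow no p below 0.0079. Of 22 chromosomes 19 had an adjusted p under 0.05, chromosomes 7 (adjusted p = 0.56 by the exact test), 8 (0.10) and M (0.24) being the exceptions. The largest shifts between the lines, leaving aside the 10 tested genes of chromosome Y, were on chromosomes 3 (B16F10 luc2 minus RET 0.30), 4 (-0.29), X (-0.26), 6 and M (-0.22 each) and 12 (0.22).

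The 3 other lines were far from uniform at the members. WT31 and D4M differed at 67.6% of the higher and 74.5% of the lower genes, WT31 and HCmel12 at 62.5% and 68.7%, and D4M and HCmel12 at 63.2% and 74.2%. Over all tested genes the shares were 76.1%, 70.4% and 72.5%. The line nearest to the pair was HCmel12 for 706 of the higher and 551 of the lower genes, WT31 for 546 and 425, and D4M for 422 and 314.

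Overlap of single libraries gave a stricter view. All 10 libraries of the pair lay above all 15 others for 1180 tested genes (7.74%) and below them for 918 (6.02%), and 1178 and 907 of these were also in the called set. Of the called genes 441 higher and 437 lower were at least 2-fold apart in each of the 6 comparisons. For 125 of the 2964 the lowest line of the high side had a mean under 10 counts. The median exonic length was 3767 bases for higher, 4781.5 for lower and 4153 for all tested genes, and 89.4%, 93.6% and 86.8% were protein coding.

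At the limit of the called set, Lemd2 was just inside with 64.7 ± 2.96 CPM in B16F10 luc2 and 51.4 ± 3.22 in RET, against 42.3 ± 2.12 in WT31, 46.6 ± 4.06 in D4M and 26.5 ± 3.01 in HCmel12. Pitpnb was just inside on the lower side, with 96.6 ± 5.93 CPM in B16F10 luc2 and 108 ± 5.13 in RET, against 121 ± 3.21 in WT31, 137 ± 6.99 in D4M and 118 ± 7.64 in HCmel12. Both calls were lost under many alternatives. Nmi (8.82 ± 0.635 and 11.1 ± 0.303 CPM in the pair, 3.29 to 7.33 elsewhere) and Samd1 (26.8 ± 1.86 and 40.8 ± 3.07 CPM in the pair, 46.5 to 58.2 elsewhere) were just outside.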

How the data were processed

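RNA was sequenced from 5 biological replicates of each of 5 mouse melanoma lines. The labels name BGISeq-500 protocols for the libraries while the study's methods name an Illumina HiSeq sequencer, and the sources were not reconciled. The submitters' processing notes name Trim Galore (version 0.6.4), kallisto (version 0.4.6) and GRCm38.p6. The deposited values used here are expected counts per gene (estimated counts as kallisto gives them, not whole numbers for 24.5 to 26.6% of values in a library), which the authors did not normalise. The deposited TPM values, scaled by the authors to gene length and library, served only for an alternative; TPM of D4M replicate 1 were not used here. How transcripts were summed to genes is not given in the sources used here. Library totals, 24199083 to 25843286 counts, limit a library at 0 to fewer than about 3 counts.

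Counts were filtered (filterByExpr), scaled by TMM and fitted over all 5 lines with voom and limma (version 3.58.1, edgeR 4.0.16, R 4.3.3), with Benjamini-Hochberg adjustment over 15247 genes and a limit of 0.05. The script was tested on simulated data. Genes named are the 12 with the largest gap in each direction (protein coding, no predicted symbol, a mean of at least 1 CPM in the lowest line of the high side), up to 3 called genes with the largest gap in each list, the genes altered in the lines, the 2 nearest the limit on either side of it and the 3 called genes of the lists most different within the pair in each direction; others were named after their values were seen. Some genes and alleles are not reported here, although counts over lists include them. Symbols came from GENCODE M21, which matched 55144 of 55385 identifiers. Alternatives were edgeR, DESeq2 (version 1.42.0), other scalings, filters, limits, TPM and single libraries left out. The members and gene lists were chosen with earlier results of these data known. The labels call the replicates biological but do not say how they were separated, so p-values measure the spread between these libraries, which may be in part technical.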

Additional observations from a re-analysis of the deposited data

Results flagged for a closer look

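Within each line, the 5 libraries were compared for the 12 genes with the largest gap in each direction and for genes altered in the lines (where the mean was at least 10 counts), and for the medians of chromosomes 6, 12, 13, 14, 15, 18 and X. In these 129 groups, a library was marked when its distance to the nearest other library exceeded 0.71 of the range of its group. This happened in 10 groups, and chance alone marks about 1 in 20 groups, here 6.5. In RET replicate 3 the marked genes were as follows: Sectm1a was at 5.71 CPM against 7.57 to 8.14 in the other RET libraries, Dync1i1 at 14.5 CPM against 4.48 to 6.95, Mt1 at 472 CPM against 583 to 627 and Mt2 at 284 CPM against 366 to 375. The median deviation of chromosome 6 was 0.55 in the same library and 0.58 in the others. Trp53 was at 184 CPM in HCmel12 replicate 4, against 234 to 247, and the median deviation of chromosome 14 was 0.04 in that library, against 0.07 to 0.08. In D4M, Runx3 was at 24 CPM in replicate 2 against 15.4 to 16.7, and the median deviation of chromosome 18 was 0.24 in replicate 5 against 0.17 to 0.19. Cdkn2a was at 3.23 CPM in WT31 replicate 2 and at 2.65 to 2.81 in the other WT31 libraries.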

How the results depend on the processing

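Of 2964 genes called in all 6 comparisons, 2889 were also called with edgeR, 2821 with DESeq2, 2723 with library size as the only scaling and 2348 on log2(TPM + 1). A limit of 2-fold in each comparison left 441 higher and 437 lower genes, and within the pair 2175 of all tested, 114 of the higher and 95 of the lower genes. At an adjusted p under 0.01, 569 of the higher and 326 of the lower genes differed within the pair. The order of line means alone gave 2804 and 2640 members. With line means as units 1 gene was higher and 4 lower, a description, since the same values chose the members. Slc30a9 changed direction to 0.01 with library size alone. Leaving out 1 library at a time gave 1630 to 1701 higher and 1241 to 1336 lower genes, and within the pair 7411 to 8257 of all, 770 to 930 of the higher and 470 to 578 of the lower genes. Same-numbered libraries of different lines did not deviate together (correlations -0.45 to 0.35, over 0.1 in 13 of 50 pairs), so replicate numbers do not pair the libraries; a replicate block gave 1638 higher and 1338 lower genes, 2913 of them shared, and 7846, 784 and 581 differing within the pair. Of 4022 values of 111 named genes under alternatives 3892 kept the call. Apart from the 2-fold limit, 94 genes kept it in every alternative that gave them a value. A gene that failed the filter of an alternative had no value there and was not counted as lost. Genes at or near 0 in the pair could not pass the filter of 10 counts in every library. Of 792 counts of list members 96 moved by over 1.5 times, 32 of them with the 2-fold limit and 25 with at least 10 counts in every library. With that filter the lower genes fell to 4 for melanocyte and neural crest factors, 6 for matrix proteases, 6 for axon guidance, 5 for integrins and cadherins, 4 for receptor tyrosine kinases and 1 each for the Wnt pathway and the RET list. The higher genes fell to 2 for axon guidance and 0 for Hox genes, germline genes and the RET list. Leaving out D4M replicate 1 and HCmel12 replicate 4 together gave 1679 higher and 1323 lower genes. Their removal for the chromosome and near-0 counts, the removal of WT31 replicate 4 with D4M replicate 1 and the list counts without 1 library were added after seeing the data. The causes of these changes were not tested. Depth limits genes under about 3 counts per library, and the 5 lines limit any statement about lines.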
